A study of Saccharomyces cerevisiae with 24 samples.

Results

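Cells of about 60 fL were compared with cells of about 40 fL in a size series of wild-type budding yeast, Saccharomyces cerevisiae, to find which transcripts rose and which fell. The comparison rests on 6 libraries of the 24 in the series, 3 at each size, chosen by the measured mean cell size of the sample. The 40 fL libraries came from pools of 39.7, 39.1 and 40.1 fL, and the 60 fL libraries from pools of 60.8, 59.7 and 60.5 fL. Every pool was of strain BY4743, a laboratory diploid with a and alpha mating type information and deletions in URA3, LEU2 and HIS3, grown in the rich glucose medium YPD at 30 °C with no further mutation named.

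Small cells in the G1 phase were collected by centrifugal elutriation, which sorts cells by size, and were put back in medium until they reached the wanted size. They were then stopped with cycloheximide and sodium azide, at both sizes alike, and frozen cells of similar size from several cultures were pooled into a sample. Size and time in culture after elutriation therefore cannot be told apart in these groups. A lower level in a pool could be fewer cells that hold a transcript, less of it per cell or a smaller share of a larger total of RNA. These cannot be told apart either, since levels are relative to the other RNAs of a library. The replicates are separate pools, but the labels do not say whether any culture entered more than 1 pool, so the p-values measure the spread between these pools. Total RNA was depleted of ribosomal RNA and sequenced without selection for poly(A) tails.

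The 6 libraries held 17349741 to 24408547 reads assigned to genes. Levels are given as CPM, each library's counts at a common total, scaled by the TMM method, and always in the order of replicates 1, 2 and 3. A change is a log2 ratio of the 60 fL level to the 40 fL level with its standard error, from edgeR's quasi-likelihood test over all 24 libraries, and its p-value is adjusted by the Benjamini-Hochberg method over 6402 genes. The first principal component of the 6 libraries held 91.2% of their variance, with the 40 fL libraries at one end and the 60 fL libraries at the other. Replicate 1 at 40 fL stood apart, at 1.67 times as far from the other two 40 fL libraries as they were from each other.

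A G1 cell commits to division at a point called Start. There the G1 cyclin Cln3 with the kinase Cdc28 relieves the repressor Whi5 from the transcription factor SBF (Swi4 with Swi6), while the related factor MBF (Mbp1 with Swi6) turns on genes for DNA replication. The cell then buds, copies its DNA and makes histones, and the mitotic cyclins and their targets follow. The mass of a growing cell is made largely by ribosomes, and the genes that assemble ribosomes are known to be turned up and down together with growth, many of them through the promoter elements PAC and RRPE.

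Promoters of genes with large changes are shown because they hold these elements. They are from the R64 reference assembly (RefSeq), 5′ to 3′ on the strand of the gene, and run from 250 to 51 bases before the start codon. Capitals mark matches to the MCB element, which MBF binds (ACGCGT), or to the SCB element, which SBF binds (CNCGAAA or its complement), in the 3 genes that rose, RNR1, POL30 and RNR3. In the 2 genes that fell, DBP2 and NSR1, capitals mark PAC (GATGAG) and RRPE (AAAAATTT) on either strand.
RNR1, chrV:298700-298899, plus strand: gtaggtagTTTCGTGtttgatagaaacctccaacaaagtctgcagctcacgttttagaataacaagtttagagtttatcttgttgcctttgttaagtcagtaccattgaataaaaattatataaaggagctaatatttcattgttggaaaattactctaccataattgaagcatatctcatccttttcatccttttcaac
POL30, chrII:425817-426016, minus strand: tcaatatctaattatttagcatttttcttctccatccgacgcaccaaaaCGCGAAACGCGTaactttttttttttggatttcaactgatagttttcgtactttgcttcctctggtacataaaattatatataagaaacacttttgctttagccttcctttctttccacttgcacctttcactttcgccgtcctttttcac
RNR3, chrIX:240759-240958, minus strand: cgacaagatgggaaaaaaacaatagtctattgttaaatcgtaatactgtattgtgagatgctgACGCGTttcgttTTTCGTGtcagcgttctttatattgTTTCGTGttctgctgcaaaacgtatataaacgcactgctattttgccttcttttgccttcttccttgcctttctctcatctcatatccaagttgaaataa
DBP2, chrXIV:413389-413588, plus strand: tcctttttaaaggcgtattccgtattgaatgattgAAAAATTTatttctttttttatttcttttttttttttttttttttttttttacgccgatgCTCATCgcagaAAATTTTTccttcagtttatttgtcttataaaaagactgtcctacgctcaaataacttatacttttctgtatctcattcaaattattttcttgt
NSR1, chrVII:807707-807906, minus strand: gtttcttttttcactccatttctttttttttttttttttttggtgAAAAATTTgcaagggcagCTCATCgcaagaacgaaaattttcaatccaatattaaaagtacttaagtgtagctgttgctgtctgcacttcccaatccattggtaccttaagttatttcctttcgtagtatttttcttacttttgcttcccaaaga

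The windows of RNR1 and RNR3 hold the SCB element as TTTCGTG, and in POL30 the SCB element runs straight into the MCB element. In DBP2 and NSR1 a PAC match stands close to an RRPE match. Counted on both strands from 250 bases before to 50 after the start codon, MCB was present in 3.15% of 5809 promoters and in 12.7% of the 699 promoters of genes that were higher at 60 fL by at least 2-fold. It was present in 0.885% of the 678 promoters of genes that were lower by at least 2-fold, and in 22 of 33 (66.7%) promoters of the replication fork genes. The corresponding shares for SCB were 14.0% of all promoters, 24.2% of the higher and 12.7% of the lower, and an MCB and an SCB match overlapped in 2 promoters.

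PAC was present in 19.8% of all promoters, in 45.4% of the promoters of genes that fell by at least 2-fold and in 12.2% of those that rose. RRPE was present in 14.5%, 37.2% and 6.44% of the same sets. Of the 117 promoters of the rRNA processing genes, 107 (91.5%) held PAC, 98 (83.8%) held RRPE and 90 (76.9%) held both, against 5.77% of all promoters with both. The stress element STRE (AGGGG) was present in 22.0% of all promoters, 23.6% of the higher and 18.6% of the lower. Such matches are counts of letters and not binding sites, and no test was run on them.

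**Figure D1:**
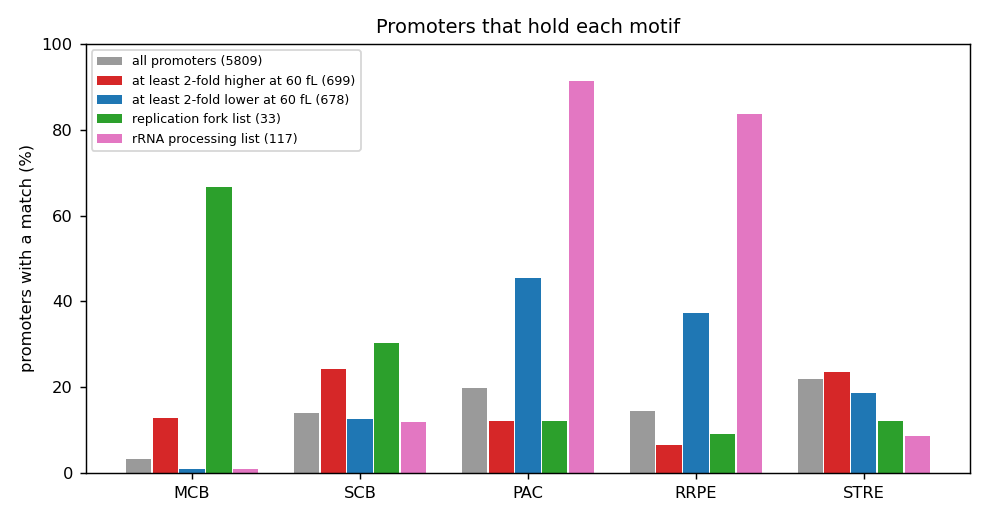
Percent of promoters with a match to each of 5 motifs (y axis from 0 to 100), on either strand, from 250 bases before to 50 after the start codon, for all promoters, for genes changed by at least 2-fold and for 2 gene lists, with the number of promoters in brackets. MCB stands highest in the replication fork list (66.7%), and PAC (91.5%) and RRPE (83.8%) stand highest in the rRNA processing list.

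At an adjusted p under 0.05, 4165 of 6402 genes (65.1%) differed between the sizes, 1976 higher (30.9%) and 2189 lower (34.2%) at 60 fL. At a difference of at least 2-fold, 732 genes were higher (11.4%) and 818 lower (12.8%). The 60 fL libraries all lay above the 40 fL libraries in 2382 genes (37.2%) and all below them in 2604 (40.7%). The median change over all tested genes was -0.04. Of the called genes 47.4% were higher, a share that was 30.4% with library totals in place of TMM, which moved the median of all genes to -0.30. With limma on the log2 of the deposited TPM plus 1, which changes the unit and the test along with the scaling, it was 23.1% and the median was -0.42. Calls below are by TMM, and the direction of a group is given under the other scalings where it turned. With so many genes called, a list is read against these shares and not against 0.

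**Figure D2:**
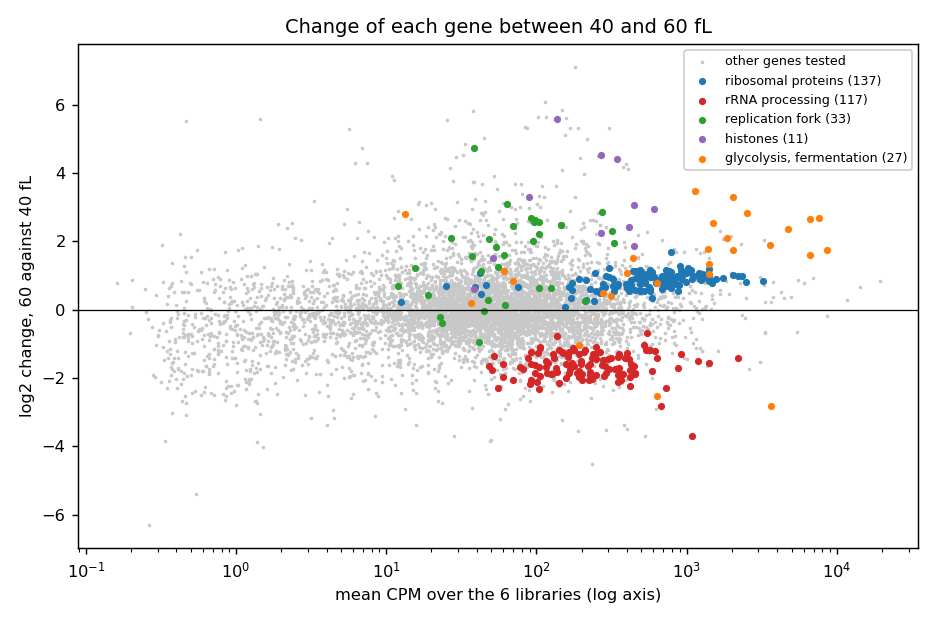
Log2 change between 40 and 60 fL (y axis) against the mean CPM over the 6 libraries (x axis, log scale), 1 point a gene, for 6402 genes with 5 lists in colour. Ribosomal protein genes lie in a band with a median of 0.90, rRNA processing genes lie in a band with a median of -1.63, and histone genes reach 5.59.

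The strain and cell type were read from marker genes. URA3 and LEU2 had 0 counts in all 6 libraries, and HIS3, whose deletion in this strain is partial, had a mean of 34.5 CPM. Genes that a diploid with both mating types keeps off were at low levels, at most a mean of 64.7 CPM in 40 fL cells, in SAG1, the alpha agglutinin. They were nonetheless lower at 60 fL in 17 of 19 genes and higher in 0, with a median change of -1.27. STE2, the receptor for alpha factor, stood at 19.3, 18.8 and 18.5 CPM at 40 fL and 5.73, 5.54 and 6.58 CPM at 60 fL, and the groups did not overlap (log2 change -1.66 ± 0.22, adjusted p = 6.65e-06). MF(ALPHA)1, which encodes alpha factor, changed by -2.39 ± 0.22, from a mean of 37.0 to 7.06 CPM.

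Genes of meiosis and sporulation, which growing cells keep low, were lower in 8 and higher in 2 of 16. The kinase gene of spore wall formation, SPS1, stood at 51.4, 52.0 and 54.8 CPM at 40 fL and 4.16, 3.92 and 3.97 CPM at 60 fL, a change of -3.71 ± 0.56 (adjusted p = 2.27e-05). NDT80, the activator of the middle sporulation genes, changed by -1.11 ± 0.15 and ZIP1, of the synaptonemal complex, by -0.96 ± 0.10. SPS4, another sporulation gene, went the other way, from 0.769, 0.584 and 0.764 CPM to 14.2, 15.6 and 12.8 CPM (4.31 ± 0.67, adjusted p = 3.16e-05), and REC8, the meiotic cohesin, was called higher by 0.61 ± 0.21 at a mean of 4.03 CPM, but not without replicate 2 at 40 fL or replicate 3 at 60 fL (adjusted p from 0.0755 to 0.100). Outside that list, SPO24, which encodes a small protein of sporulation, fell from 826, 1028 and 1089.7 CPM to 80.5, 77.0 and 69.3 CPM (-3.70 ± 0.50). The high and low groups did not overlap for SPS1, SPS4 or SPO24.

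Genes that mark the newborn daughter cell, which split the septum after division, did not move together, with 3 higher, 1 lower and 10 not past the threshold, and a median of -0.04 that changed sign in several other fits. DSE2, a daughter-specific glucanase-like protein, stood at 342, 425 and 304 CPM at 40 fL and 74.4, 193 and 166 CPM at 60 fL, a change of -1.31 ± 0.38 (adjusted p = 0.00553). PIR1, a wall protein, rose from a mean of 60.2 to 232 CPM (1.95 ± 0.51, adjusted p = 0.00271). EGT2 (1.71 ± 0.58, adjusted p = 0.0146) and DSE4 (1.06 ± 0.46, adjusted p = 0.0493) were called higher, but their calls were lost without replicate 2 at 60 fL (adjusted p = 0.0581 and 0.156) and without replicate 3 at 40 fL (adjusted p = 0.0563 and 0.164). DSE4 was also lost without replicate 2 at 40 fL and without replicate 3 at 60 fL (adjusted p = 0.102 and 0.107). The chitinase CTS1 stood at 619.6, 661 and 486 CPM at 40 fL and 185, 478 and 401 CPM at 60 fL, where the lowest 40 fL library was just above the highest 60 fL library (-0.73 ± 0.41, adjusted p = 0.125). It was called lower with library totals (-0.98, adjusted p = 0.0473) and with TPM plus 1 (-1.23, adjusted p = 0.0170). DSE1 stood at 228, 195 and 136 CPM at 40 fL and 95.7, 213 and 194 CPM at 60 fL, and its groups overlapped. The 60 fL replicate 1 was the lowest of its group for all of DSE1, DSE2, CTS1, EGT2, DSE4 and PIR1.

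Start regulators rose as a group, with 17 of 20 genes higher, 1 lower and a median of 1.68. The G1 cyclins were among the largest changes of the whole comparison. CLN2, a cyclin that drives budding (chromosome XVI, 64977 to 66614), stood at 12.6, 5.84 and 7.26 CPM at 40 fL and 273, 310.4 and 319.6 CPM at 60 fL, a change of 5.13 ± 0.52 (adjusted p = 8.77e-07). CLN1, its close relative, stood at 14.7, 6.09 and 6.58 CPM at 40 fL and 345, 367 and 391 CPM at 60 fL, a change of 5.33 ± 0.50 (adjusted p = 6.87e-07). In both genes the groups were far apart, and replicate 1 was the highest of the 40 fL group. PCL1, a cyclin of the kinase Pho85, went from 9.16, 3.21 and 2.59 CPM to 267, 308 and 291 CPM, a change of 5.84 ± 0.56, and its partner PCL2 changed by 2.84 ± 0.28. The S phase cyclins followed the same direction: CLB6 was at 2.38, 0.667 and 0.807 CPM at 40 fL and 70.9, 78.3 and 74.6 CPM at 60 fL (5.81 ± 0.51, adjusted p = 4.55e-07), and CLB5 changed by 2.52 ± 0.26. Without replicate 1 at 40 fL the changes of PCL1 and CLB6 were 6.63 and 6.65 (adjusted p = 2.72e-06 and 2.25e-06).

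The upstream activator went the other way. CLN3, the cyclin that begins Start, stood at 161, 176 and 179.5 CPM at 40 fL and 81.9, 110.3 and 101 CPM at 60 fL, without overlap, a fall of 0.82 on the log2 scale (SE 0.17, adjusted p = 0.000453) and the only fall in the list. BCK2, which activates the same genes without CLN3, stood at 137, 143 and 142 CPM at 40 fL and 128, 133 and 134 CPM at 60 fL, just short of overlap, with a change of -0.10 ± 0.07 that did not pass the threshold (adjusted p = 0.226) but did with library totals (-0.35, adjusted p = 0.000799). The repressor WHI5 stood at 10.1, 10.5 and 8.58 CPM at 40 fL and 21.4, 22.3 and 24.0 CPM at 60 fL, a rise of 1.21 ± 0.21 (adjusted p = 7.77e-05), and SRL3, which is related to WHI5, rose by 1.81 ± 0.40.

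The subunits of the factors themselves rose by different amounts. SWI4, the DNA-binding subunit of SBF, stood at 59.7, 43.8 and 43.7 CPM at 40 fL and 241, 284 and 271 CPM at 60 fL (2.43 ± 0.31, adjusted p = 4.86e-06). SWI6, shared by both factors, rose by 1.03 ± 0.12, and MBP1, the DNA-binding subunit of MBF, by 0.62 ± 0.11. MBP1 did not pass with TPM plus 1 (0.20, adjusted p = 0.104). NRM1, a corepressor that closes the MBF wave and is itself a target of it, rose by 3.77 ± 0.52, from 4.20, 3.33 and 3.91 CPM to 59.8, 50.2 and 46.4 CPM. CDC28, the cyclin-dependent kinase, stood at 40.1, 32.3 and 33.2 CPM at 40 fL and 82.3, 75.7 and 84.9 CPM at 60 fL (1.20 ± 0.09, adjusted p = 9.24e-08), and FAR1, a Cdc28 inhibitor known from mating, rose by 1.82 ± 0.28. SIC1, the inhibitor of the S phase cyclins, was called higher by 0.42 ± 0.15 (adjusted p = 0.0211), a call that was lost without replicate 2 at 40 fL (adjusted p = 0.0503) and without replicate 2 or replicate 3 at 60 fL (adjusted p = 0.0705 and 0.0534). It was also lost with library totals (0.17, adjusted p = 0.382) and with TPM plus 1 (0.012, adjusted p = 0.957).

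**Figure D3:**
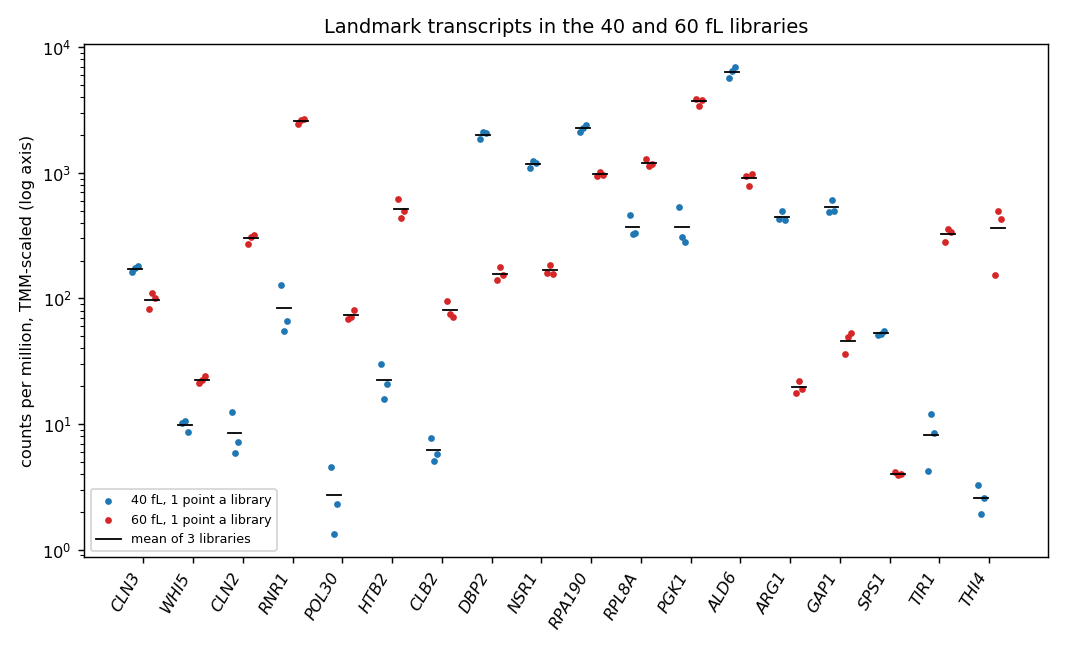
TMM-scaled CPM (y axis, log scale) of 18 genes in the 40 fL libraries (blue) and the 60 fL libraries (red), 3 of each, with the group mean as a bar. The groups do not overlap in any of the 18 genes, and CLN3, DBP2, NSR1, RPA190, ALD6, ARG1, GAP1 and SPS1 are lower at 60 fL.

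Of 13 transcription factors of the later cell cycle, 10 were higher and 1 was lower, with a median of 1.98. YOX1, a repressor that acts with Mcm1, stood at 6.50, 2.67 and 3.23 CPM at 40 fL and 151, 183 and 172 CPM at 60 fL (5.34 ± 0.51). YHP1, a repressor of the same kind, rose by 5.02 ± 0.54, or by 5.68 without replicate 1 at 40 fL. TOS4, a target of SBF with a forkhead-associated domain, stood at 7.27, 1.96 and 2.67 CPM at 40 fL and 196, 195 and 214 CPM at 60 fL (5.65 ± 0.59, adjusted p = 1.01e-06; 6.44 without replicate 1 at 40 fL), and PLM2, its paralog, rose by 3.17 ± 0.36. Neither gene's groups overlapped. HCM1, the forkhead factor of S phase, rose by 1.93 ± 0.22, NDD1, the coactivator of the CLB2 cluster, by 1.98 ± 0.27, and FKH2, its DNA-binding partner, by 0.69 ± 0.16. FKH2 did not pass with TPM plus 1 (0.27, adjusted p = 0.0927). SWI5, which acts at the end of mitosis, rose by 2.87 ± 0.50. MCM1 itself was the member that fell, by 0.68 on the log2 scale (adjusted p = 0.000785), from 148, 184 and 179 CPM to 97.9, 119 and 103 CPM.

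DNA replication genes divided by role. Of 33 genes of the replication fork, 28 were higher and 3 lower, with a median of 1.83. POL30, which encodes the sliding clamp PCNA (chromosome II, 424990 to 425766) and whose promoter is printed above, stood at 4.55, 1.33 and 2.29 CPM at 40 fL and 68.9, 71.5 and 80.6 CPM at 60 fL, a rise of 4.73 ± 0.52 (adjusted p = 1.39e-06), which was 5.34 without replicate 1 at 40 fL. POL1, the catalytic subunit of polymerase alpha, went from 80.4, 56.0 and 61.9 CPM to 455, 482 and 503 CPM (2.86 ± 0.30). RFA1, of the single-strand binding protein, rose by 2.48 ± 0.24 and CTF4, which couples helicase and polymerase, by 2.56 ± 0.27. The members that fell were DPB4, a subunit of polymerase epsilon and of a chromatin remodeller (-0.96 ± 0.18), and the GINS subunits SLD5 (-0.37 ± 0.13) and PSF1 (-0.21 ± 0.09, adjusted p = 0.0389). PSF1 lost its call without replicate 1 or 3 at 40 fL and without replicate 1 or 2 at 60 fL, with adjusted p from 0.0676 to 0.182.

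Origin licensing genes, which load the helicase before S phase, showed no common direction, with 7 of 20 higher and 5 lower. Their median of 0.16 turned to -0.09 with library totals and to -0.24 with TPM plus 1. CDC6, the loader, stood at 12.2, 12.5 and 9.30 CPM at 40 fL and 37.3, 42.5 and 42.0 CPM at 60 fL (1.84 ± 0.23, adjusted p = 4.29e-06), and SLD2, a target of the S phase kinase, rose by 2.13 ± 0.24. Of the MCM helicase, MCM7 rose by 0.76 ± 0.15 and MCM3 fell by 0.50, while MCM2 stood at 144, 154 and 157 CPM at 40 fL and 123, 158 and 138 CPM at 60 fL, with overlapping groups (adjusted p = 0.552), and was called lower with TPM plus 1 (-0.52, adjusted p = 0.0209). MCM5 was also called lower (-0.44 ± 0.14, adjusted p = 0.00946), a call lost without replicate 1 at 60 fL (adjusted p = 0.0579). The other members that fell were DPB11 (-0.70 ± 0.14), which recruits polymerase, TAH11 (-0.51 ± 0.16), the yeast Cdt1, and ORC5 (-0.41 ± 0.12).

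Nucleotide supply rose in 11 of 12 genes and fell in 0, with a median of 0.74. RNR1, the large subunit of ribonucleotide reductase (chromosome V, 298950 to 301616), stood at 129, 55.4 and 66.1 CPM at 40 fL and 2464, 2612 and 2682 CPM at 60 fL, a rise of 4.95 ± 0.53 (adjusted p = 1.25e-06). RNR3, its minor isoform known to be induced by DNA damage, went from 18.9, 15.7 and 14.6 CPM to 222, 319 and 293 CPM, a rise of 4.08 ± 0.55. The small subunits changed less, RNR2 by 0.84 ± 0.10 and RNR4 by 0.66 ± 0.12, and RNR4 did not pass with TPM plus 1 (adjusted p = 0.0540). In TPM, a per-length level, RNR1 was below RNR2 at 40 fL, at 38.3 against 466, and above it at 60 fL, at 900.5 against 627. CDC21, thymidylate synthase, rose by 3.68 ± 0.40, and DUN1, a checkpoint kinase that controls the reductase, by 3.20 ± 0.36.

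Cohesin genes, which hold sister chromatids together, were higher in 11 of 12 and lower in 0, with a median of 2.35. MCD1, the subunit that is cut at anaphase, stood at 9.79, 4.29 and 4.54 CPM at 40 fL and 291, 307 and 331 CPM at 60 fL, a rise of 5.63 ± 0.57 (adjusted p = 9.47e-07). PDS5 rose by 3.97 ± 0.42, IRR1 by 3.29 ± 0.35 and SMC1 by 1.80 ± 0.19. Repair genes were higher in 10 of 17 and lower in 1, with a median of 0.37 that turned to -0.03 with TPM plus 1. The mismatch repair gene PMS1 rose by 2.55 ± 0.31 and the checkpoint kinase RAD53 by 2.65 ± 0.31. The gene that fell, RAD55 of the recombination machinery (-0.37 ± 0.12, adjusted p = 0.0151), lost its call without replicate 3 of either size (adjusted p = 0.0532 at 40 fL and 0.0912 at 60 fL).

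Histone genes rose in 11 of 11, with a median of 2.96. The 4 core histones are each encoded by 2 genes. HTA2 stood at 9.90, 2.92 and 3.69 CPM at 40 fL and 334, 227 and 241 CPM at 60 fL (5.59 ± 0.67, adjusted p = 2.86e-06), and HTA1, for the same histone H2A, at 97.4, 92.5 and 91.7 CPM at 40 fL and 516, 376 and 449.7 CPM at 60 fL (2.25 ± 0.34). The change of HTA2 was 6.33 without replicate 1 at 40 fL. For both genes replicate 1 was the highest library at either size, and the groups did not overlap. HTB1, for H2B, rose by 2.42 ± 0.34, HHT2, for H3, by 2.96 ± 0.36, and the H4 genes HHF1 and HHF2 by 3.08 ± 0.45 and 4.40 ± 0.49. HHF1 and HHF2 share 40.8% of their 31-base words with other places in the genome, so the split of reads between them is uncertain. HHO1, the linker histone, rose by 3.30 ± 0.34. Histones took 0.0903% ± 0.0075 (SD, n = 3) of the counts at 40 fL and 0.527% ± 0.067 (SD, n = 3) at 60 fL. Chromatin assembly factors were higher in 11 of 14, among them SPT21, an activator of histone genes (3.01 ± 0.35), RLF2, of the assembly factor CAF-1 (1.36 ± 0.15), the histone gene corepressor HIR2 (0.80 ± 0.09) and SPT16, of FACT (0.96 ± 0.11).

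Genes of bud growth and the septin ring rose in 15 of 24 and fell in 3, with a median of 0.96. GIN4, a kinase that assembles septins, stood at 34.0, 14.3 and 16.9 CPM at 40 fL and 467, 505 and 501 CPM at 60 fL (4.49 ± 0.46, adjusted p = 1.01e-06), and AXL2, an axial bud site landmark, went from 10.4, 7.34 and 8.11 CPM to 93.3, 102 and 108 CPM (3.55 ± 0.39). The septin CDC3 rose by 1.60 ± 0.14 and the sensor MSB2 by 2.23 ± 0.23. BEM1, the polarity scaffold, fell from 116, 129.7 and 124 CPM to 56.5, 71.4 and 65.1 CPM (-0.94 ± 0.18, adjusted p = 0.0002), and BNI1, a formin, by 0.37 on the log2 scale. CLA4, a kinase bound by Cdc42, was also called lower (-0.40 ± 0.15, adjusted p = 0.0284), but not without replicate 2 at 40 fL, replicate 3 at 40 fL or replicate 1 at 60 fL (adjusted p from 0.0675 to 0.121).

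Spindle genes rose in most members. Spindle pole and tubulin genes were higher in 15 of 17 and lower in 1, with a median of 2.02, motors and microtubule proteins in 13 of 15 with a median of 1.88, and kinetochore genes in 20 of 23 with a median of 0.92. TUB2, for beta-tubulin, stood at 108, 76.4 and 89.3 CPM at 40 fL and 543, 455 and 469 CPM at 60 fL (2.42 ± 0.26, adjusted p = 1.38e-06), and TUB1, for alpha-tubulin, rose by 2.48 ± 0.28. SPC42, of the central plaque of the spindle pole, rose by 2.03 ± 0.19, and STU2, a microtubule polymerase, by 3.02 ± 0.37. The kinetochore genes DUO1, DAM1 and MIF2 rose by 2.27 ± 0.30, 1.50 ± 0.20 and 1.62 ± 0.19. CDC31, yeast centrin, fell by 0.36, the inner kinetochore gene AME1 by 0.56 and the DASH subunit ASK1 by 0.36.

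The CLB2 cluster, which peaks in mitosis, rose in 19 of 20 genes with a median of 1.98. CLB1 stood at 5.21, 2.04 and 2.63 CPM at 40 fL and 234, 229 and 209.8 CPM at 60 fL (6.07 ± 0.75, adjusted p = 3.67e-06), and CLB2, the major mitotic cyclin, at 7.73, 5.08 and 5.73 CPM at 40 fL and 95.2, 74.8 and 70.7 CPM at 60 fL (3.69 ± 0.52, adjusted p = 1.1e-05). CDC5, the polo kinase, rose by 2.95 ± 0.36, CLB3 by 1.04 ± 0.12 and CDC20, the activator of anaphase, by 1.60 ± 0.35. No 60 fL library overlapped a 40 fL library in any of them. The share of cells that had passed each stage was not measured here.

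**Figure D4:**
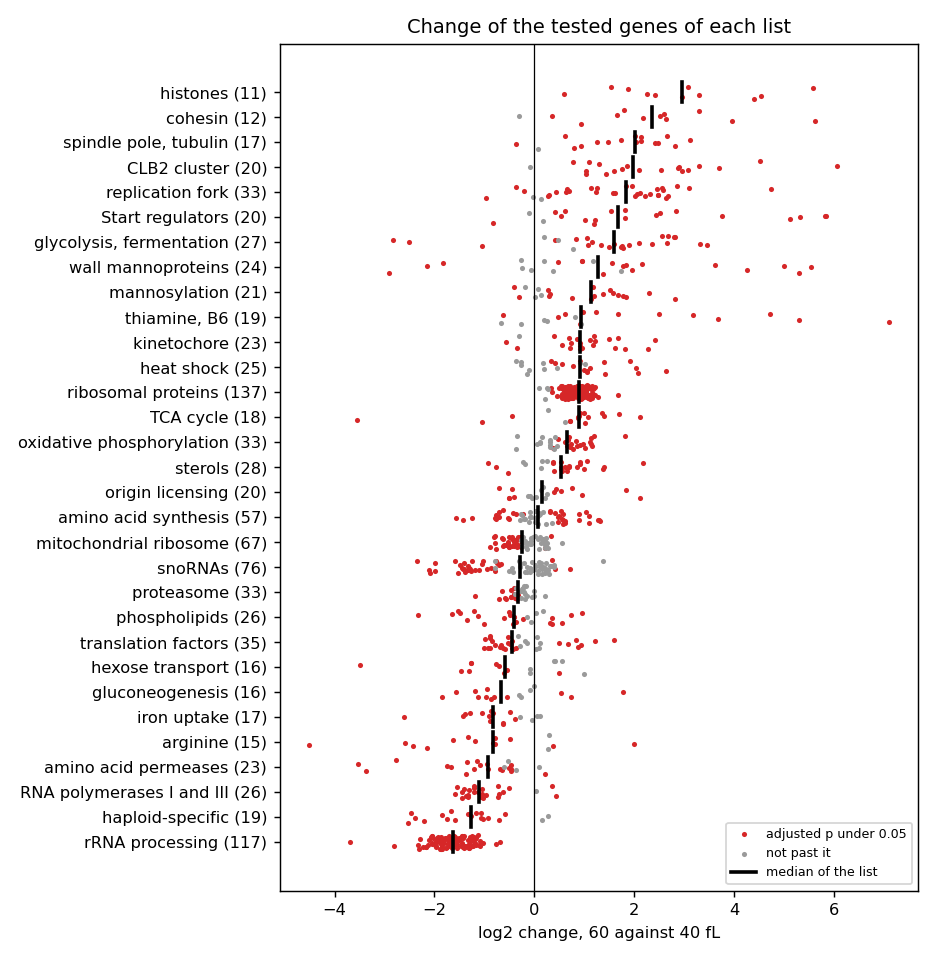
Log2 change between 40 and 60 fL (x axis) of the tested genes in 31 lists (number in brackets), 1 point a gene, red where the adjusted p is under 0.05 and grey otherwise, with the list median as a black bar; vertical scatter within a list carries no value. Histones have the highest median (2.96) and rRNA processing the lowest (-1.63).

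Ribosome assembly went down without exception in the list used. All 117 tested genes of rRNA processing were lower at 60 fL, by 0.68 to 3.68 on the log2 scale, with a median of -1.63 against a background of 34.2% of genes lower. DBP2, an RNA helicase (chromosome XIV, 413639 to 416281) whose promoter holds PAC and RRPE, stood at 1841, 2121 and 2085 CPM at 40 fL and 141, 177 and 153 CPM at 60 fL, a fall of 3.68 (SE 0.72, adjusted p = 0.000252). NSR1, a nucleolar protein of pre-rRNA processing, stood at 1086, 1243 and 1186 CPM at 40 fL and 160.1, 186 and 157 CPM at 60 fL, a fall of 2.81 (SE 0.60, adjusted p = 0.000523). NOP56, a core protein of box C/D snoRNPs, went from 766, 888 and 899 CPM to 373, 377 and 363 CPM (-1.20 ± 0.27). In all 3 genes the lowest 40 fL library was above the highest 60 fL library. RRP15 fell by 2.29, NOP53 by 2.07 and RIO1 by 1.68. The list took 6.03% ± 0.44 (SD, n = 3) of the counts at 40 fL and 1.64% ± 0.11 (SD, n = 3) at 60 fL.

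RNA polymerases I and III, which make rRNA, tRNA and other small RNAs, fell in 23 of 26 genes with a median of -1.10. RPA190, the largest subunit of polymerase I, stood at 2096, 2288 and 2381 CPM at 40 fL and 947, 1012 and 952 CPM at 60 fL, without overlap (-1.22 ± 0.27, adjusted p = 0.000654). RRN3, the initiation factor of polymerase I, fell by 1.58 and RPC53, a subunit of polymerase III, by 1.54. The 2 genes called higher, RRN5 (0.44 ± 0.13) and RRN9 (0.36 ± 0.08), of the upstream activating factor, did not pass with library totals, and RRN9 was at -0.05 with TPM plus 1.

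Ribosomal protein genes went the opposite way to the assembly genes. Of 137 tested, 133 were higher and 0 lower at 60 fL, with a median of 0.90, which was 0.64 with library totals and 0.49 with TPM plus 1. RPL8A, of the large subunit, had the highest change, at 460.4, 327 and 332 CPM at 40 fL and 1293, 1134 and 1176 CPM at 60 fL (1.69 ± 0.22, adjusted p = 4.79e-06). RPS26A, of the small subunit, rose by 1.20 ± 0.13, RPS0A by 1.18 ± 0.13 and RPL2A by 1.11 ± 0.13. Many of these genes have a near-identical copy, so the values of single members are uncertain where reads could be split. As a whole the list took 8.17% ± 0.58 (SD, n = 3) of the counts at 40 fL and 12.9% ± 0.9 (SD, n = 3) at 60 fL.

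Translation factors were lower in 20 of 35 and higher in 7. Among the falls PRT1, of the initiation factor eIF3, stood at 875, 976 and 956 CPM at 40 fL and 515, 505 and 496 CPM at 60 fL (-0.89 ± 0.19, adjusted p = 0.000547), and SUI3, the beta subunit of eIF2, fell by 0.98. Among the rises CAM1, a subunit of the elongation factor eEF1B, rose by 1.22 ± 0.17 and ANB1, the eIF5A of low oxygen, by 1.59 ± 0.32, and EFT2, for elongation factor 2, went from 3896, 3852 and 3977 CPM to 7912, 6344 and 7191 CPM (0.87 ± 0.11). HYP2, the other eIF5A gene, had 0 counts in all 6 libraries, so whether the ANB1 value holds reads of HYP2 is not known. EFT1 and EFT2 share 95.0% of their 31-base words and TEF1 and TEF2 share 95.4%, so within each pair the split is uncertain while both members rose.

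Small nucleolar RNAs, the guides of rRNA modification, were lower in 30 of 76 (39.5%) and higher in 3 (3.95%), with a median of -0.29. Of all genes 34.2% were lower and 30.9% higher. The list took 2.22% ± 0.21 (SD, n = 3) of the counts at 40 fL and 2.28% ± 0.05 (SD, n = 3) at 60 fL. Its share of counts thus did not fall, while its share of TPM went from 6.68% ± 0.69 (SD, n = 3) to 5.66% ± 0.23 (SD, n = 3). SNR10 fell by 1.98, SNR48 by 2.08 and SNR18, which lies in an intron of EFB1, by 1.11. SNR30, needed for cleavage of the rRNA precursor, rose by 0.71 ± 0.11 and SNR42 and SNR86 were called higher by 0.41 and 0.35, SNR86 turning to -0.06 with TPM. SNR42 lost its call without replicate 3 at 40 fL or replicate 1 at 60 fL (adjusted p from 0.0561 to 0.0760), and SNR86 without replicate 1 at 40 fL, replicate 2 at 40 fL, replicate 1 at 60 fL or replicate 3 at 60 fL (adjusted p from 0.0598 to 0.0871). Without the libraries that stood apart 21 were higher and 29 lower. Mitochondrial ribosomal proteins were lower in 33 of 67 and higher in 2, with a median of -0.25. MRPL33 had the largest fall (-0.89 ± 0.14), and the 2 called higher were MRPS12 (0.34 ± 0.11) and MRPL24 (0.23 ± 0.10), which turned to -0.07 and -0.18 with TPM plus 1, and MRPL24 lost its call without replicate 2 at 40 fL, replicate 3 at 40 fL, replicate 2 at 60 fL or replicate 3 at 60 fL (adjusted p from 0.0858 to 0.158). Proteasome genes were lower in 15 of 33 and higher in 0, with a median of -0.32. RPN4, their transcription factor, stood at 358, 340.5 and 349 CPM at 40 fL and 162, 149.6 and 152 CPM at 60 fL (-1.18 ± 0.24, adjusted p = 0.000443), while the subunits RPN11 and PRE9 fell by 0.70 and 0.56. With 1 replicate left out, the count of proteasome genes called lower went down to 7, and with TPM it went up to 31.

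Glycolysis and fermentation rose in 21 of 27 genes and fell in 3, with a median of 1.60. PGK1, phosphoglycerate kinase, stood at 529, 306 and 281 CPM at 40 fL and 3882, 3421 and 3816 CPM at 60 fL (3.32 ± 0.41, adjusted p = 4.13e-06), and CDC19, pyruvate kinase, at 1559, 1550.2 and 1439 CPM at 40 fL and 5617, 5839 and 5562 CPM at 60 fL (1.90 ± 0.20, adjusted p = 1.12e-06). PDC1, the main pyruvate decarboxylase, went from 2487, 1862 and 1825 CPM to 14267, 12353 and 13034 CPM (2.68 ± 0.25). None of the 3 overlapped between sizes, and in each replicate 1 was the highest 40 fL library. The paralogs of glyceraldehyde phosphate dehydrogenase rose by 3.47 ± 0.59 (TDH1), 2.09 ± 0.34 (TDH2) and 2.66 ± 0.30 (TDH3), and those of enolase by 2.83 ± 0.39 (ENO1) and 2.35 ± 0.24 (ENO2), with reads that could be split between copies. The list took 3.38% ± 0.14 (SD, n = 3) of the counts at 40 fL and 8.81% ± 0.14 (SD, n = 3) at 60 fL.

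The 3 genes of this list that fell make acetate or glycerol. ALD6, the cytosolic acetaldehyde dehydrogenase that makes acetate, stood at 5716, 6452 and 6907 CPM at 40 fL and 937, 782 and 983 CPM at 60 fL, without overlap (-2.82 ± 0.65, adjusted p = 0.000959). ALD4, the mitochondrial isoform, fell from 1008, 954 and 1265 CPM to 164, 182 and 219 CPM (-2.51 ± 0.65), and GPD2, for glycerol synthesis, by 1.04 on the log2 scale. Hexose transport genes were lower in 9 of 16 and higher in 1. HXT2, a transporter of high affinity that glucose represses when abundant, stood at 721, 671 and 818 CPM at 40 fL and 92.5, 43.7 and 59.6 CPM at 60 fL (-3.50 ± 0.89, adjusted p = 0.00216), and HXT3, of low affinity, fell by 1.26. The glucose sensors RGT2 and SNF3 fell by 0.55 and 0.61, the corepressors MTH1 and STD1 by 1.31 and 0.77, and HXT8 was called higher by 0.50 ± 0.14, a call that was lost with library totals (0.25, adjusted p = 0.101) and with TPM plus 1 (0.085, adjusted p = 0.515).

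Gluconeogenesis and alternative carbon genes were lower in 9 of 16 and higher in 3. PCK1, which starts gluconeogenesis, stood at 309, 153 and 110.1 CPM at 40 fL and 48.1, 67.4 and 43.2 CPM at 60 fL (-1.85 ± 0.36, adjusted p = 0.000263), where replicate 1 was the highest of the 40 fL group by a wide margin and the groups still did not overlap. Without that library the change of PCK1 was -1.32 (adjusted p = 0.00240). IDP2 fell by 1.56 and the lactate transporter JEN1 by 1.14. Invertase, SUC2, went up, from 10.5, 10.7 and 10.8 CPM to 36.4, 35.4 and 38.7 CPM (1.79 ± 0.23), as did the fatty acid oxidation gene POX1 (0.74 ± 0.17) and the carnitine acetyltransferase YAT1 (0.54 ± 0.17). YAT1 lost its call with library totals (0.29, adjusted p = 0.129) and with TPM plus 1 (0.12, adjusted p = 0.485), and POX1 with TPM plus 1 (0.26, adjusted p = 0.0802). Of the trehalose and glycogen genes 3 of 17 (17.6%) were higher, below the 30.9% of all genes, 0 were lower and 14 did not pass. The 3 higher were PGM1 (2.35 ± 0.31), UGP1 (1.54 ± 0.35) and GLG2 (1.02 ± 0.26).

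Mitochondrial metabolism rose in part. Citric acid cycle genes were higher in 13 of 18 and lower in 3, with a median of 0.89. MDH1, malate dehydrogenase, stood at 95.5, 49.9 and 49.3 CPM at 40 fL and 283, 266 and 298 CPM at 60 fL (2.12 ± 0.46, adjusted p = 0.000652), ACO1, aconitase, rose by 1.70 ± 0.35, LPD1 by 1.41 ± 0.23 and FUM1, fumarase, by 1.36 ± 0.24. CIT2, the peroxisomal citrate synthase of the retrograde response, was the largest fall, at 344, 284 and 421 CPM at 40 fL and 26.0, 31.7 and 31.7 CPM at 60 fL, without overlap (-3.55 ± 0.31, adjusted p = 4.55e-07). CIT3 was called lower (-0.44 ± 0.17) but not without replicate 3 at 40 fL, replicate 1 at 60 fL, replicate 2 at 60 fL or replicate 3 at 60 fL (adjusted p from 0.0626 to 0.169). Outside these lists MPC3, the pyruvate carrier subunit of respiring cells, fell from 25.6, 25.9 and 35.3 CPM to 3.73, 2.02 and 2.55 CPM (-3.38 ± 0.78).

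Oxidative phosphorylation genes of the nucleus were higher in 20 of 33 and lower in 0, with a median of 0.65. CYC1, cytochrome c, stood at 15.6, 17.1 and 16.8 CPM at 40 fL and 60.4, 53.4 and 59.7 CPM at 60 fL (1.81 ± 0.26, adjusted p = 1.41e-05), and the ATP synthase genes ATP1, ATP2 and ATP3 rose by 1.13 ± 0.24, 1.16 ± 0.22 and 0.97 ± 0.21. Of the 8 genes of the mitochondrial genome 6 were called higher, COX1 by 0.56 ± 0.12 and COB by 0.62 ± 0.17 among them, at a median of 0.53. COX1 and COB overlap other annotated genes on the same strand, so the assignment of their reads is uncertain. Neither passed with TPM plus 1 (adjusted p = 0.221 and 0.249), nor did COB with library totals (adjusted p = 0.0595). Under library totals 1 of the 8 was called, under TPM 0, and without replicate 1 at 40 fL or replicate 1 at 60 fL 3. The nuclear list lost calls in the same way, to 11 higher and 1 lower with library totals and to 6 higher and 1 lower with TPM plus 1.

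Heat shock genes were higher in 15 of 25 and lower in 0, with a median of 0.91. SSA2, a cytosolic Hsp70, stood at 1348, 724 and 809 CPM at 40 fL and 3743, 3532 and 3643 CPM at 60 fL (1.92 ± 0.32, adjusted p = 6.86e-05), and shares 63.9% of its 31-base words with other places in the genome, its paralog SSA1 foremost. The mitochondrial chaperonin HSP60 rose by 1.05 ± 0.20, its partner HSP10 by 0.91 ± 0.18 and the Hsp90 cochaperone AHA1 by 1.39 ± 0.27. HSP26, a small heat shock protein, stood at 129.9, 35.9 and 32.8 CPM at 40 fL and 251, 525 and 459.7 CPM at 60 fL (2.64 ± 0.82, adjusted p = 0.00931). In HSP26 and SSA2 replicate 1 was the highest 40 fL library, and neither gene's groups overlapped. Without that library the change of HSP26 was 3.58 (adjusted p = 0.00405).

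General stress genes, targets of Msn2 and Msn4, were higher in 7 of 25 (28%) and lower in 3 (12%), and 15 did not pass. Of all genes 30.9% were higher and 34.2% lower, so the share that rose was near the background. Without the libraries that stood apart, among them replicate 1 at 40 fL, 15 were higher and 3 lower. CTT1, catalase, stood at 384, 112 and 151 CPM at 40 fL and 643, 444 and 507 CPM at 60 fL and did not pass (1.30 ± 0.65, adjusted p = 0.0863), while without replicate 1 at 40 fL its change was 2.01 (adjusted p = 0.0242). GRE1, a hydrophilin, stood at 40.9, 10.0 and 8.66 CPM at 40 fL and 112, 227 and 137 CPM at 60 fL (2.99 ± 0.60, adjusted p = 0.000317), ALD3 rose by 2.42 ± 0.64 and the peroxiredoxin TSA1 by 1.46 ± 0.29. Without replicate 1 at 40 fL, GRE1 and ALD3 were at 4.09 and 3.32 (adjusted p = 4.82e-05 and 0.000768). SPI1, a wall protein, fell from 360.3, 404 and 431 CPM to 92.6, 84.2 and 91.8 CPM (-2.15 ± 0.57) and MSN4 itself from 202, 281 and 255 CPM to 118, 143 and 135 CPM (-0.90 ± 0.16). XBP1, a repressor, was the last called lower (-1.24 ± 0.48, adjusted p = 0.0292), and lost its call without replicate 2 at 40 fL, replicate 3 at 40 fL, replicate 2 at 60 fL or replicate 3 at 60 fL (adjusted p from 0.0627 to 0.0825).

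Amino acid permeases fell in 18 of 23 genes and rose in 1, with a median of -0.93. GAP1, the general permease, stood at 490.4, 604 and 497 CPM at 40 fL and 36.4, 49.4 and 52.7 CPM at 60 fL, a fall of 3.52 (SE 0.29, adjusted p = 3.19e-07). DIP5, for acidic amino acids, stood at 598, 709 and 799 CPM at 40 fL and 57.5, 79.3 and 67.3 CPM at 60 fL (-3.37 ± 0.42, adjusted p = 4.12e-06). DUR3, for urea and polyamines, went from 95.8, 141 and 104 CPM to 15.2, 16.6 and 18.2 CPM (-2.77 ± 0.21), AGP1 fell by 1.75 and the arginine permease CAN1 by 1.14. None of these genes overlapped between sizes. TAT2, for tryptophan, was called higher by 0.21 ± 0.07 (adjusted p = 0.0104), but was at -0.05 with library totals and at -0.20 with TPM plus 1, and it lost its call without replicate 2 at 40 fL or replicate 3 at 60 fL (adjusted p from 0.0534 to 0.0550).

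Arginine genes fell in 11 of 15, with a median of -0.84. ARG1, argininosuccinate synthetase (chromosome XV, 219211 to 220473), had the largest fall in the list, at 429, 493 and 419 CPM at 40 fL and 17.5, 22.0 and 19.2 CPM at 60 fL (-4.52 ± 0.60, adjusted p = 7.17e-06). ARG3, ornithine carbamoyltransferase, fell by 2.43. CAR1, arginase, fell by 0.84 and CAR2, the next enzyme of arginine breakdown, rose from 93.2, 63.9 and 78.8 CPM to 335, 291 and 319 CPM (2.00 ± 0.35). ORT1, the mitochondrial ornithine carrier, was called higher (0.37 ± 0.14, adjusted p = 0.0240) but not without replicate 2 at 40 fL, replicate 3 at 40 fL or replicate 1 at 60 fL (adjusted p from 0.0758 to 0.114).

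The remaining amino acid, sulfur and purine genes had no common direction. Of 57 amino acid synthesis genes 22 were higher and 14 lower, with a median of 0.08 that turned to -0.18 with library totals. LYS9, of lysine synthesis, stood at 66.6, 64.1 and 67.9 CPM at 40 fL and 152, 132 and 139 CPM at 60 fL (1.09 ± 0.12, adjusted p = 1.39e-06), LYS12 rose by 1.04 ± 0.15, ARO9 by 1.31 ± 0.18 and PRO3, of proline synthesis, by 1.28 ± 0.18. GCN4, their activator, stood at 755, 714 and 696 CPM at 40 fL and 728, 738 and 717 CPM at 60 fL, with overlapping groups (0.01 ± 0.12, adjusted p = 0.936). It was called lower with library totals (-0.25, adjusted p = 0.0314) and with TPM plus 1 (-0.40, adjusted p = 0.000197), and its control by translation is not seen in such data. Sulfur genes were higher in 7 and lower in 8 of 24, with a median of 0.09 that turned to -0.17 with library totals. CBF1, a factor of these genes and of centromeres, rose by 1.20 ± 0.09, and the sulfate permease SUL1 fell by 0.71.

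Purine and one-carbon genes were higher in 9 and lower in 7 of 23, with a median of 0.31 that turned to -0.10 with TPM plus 1. ADE17, for the last steps to inosine monophosphate, stood at 262, 178 and 123 CPM at 40 fL and 872, 919 and 927 CPM at 60 fL (2.27 ± 0.48, adjusted p = 0.000471), and ADE3 rose by 1.17 ± 0.26. BAS1, their activator, fell from 170.1, 157 and 167 CPM to 68.7, 71.9 and 65.5 CPM (-1.26 ± 0.28). IMD2, which commits to guanine nucleotides and has close copies, fell by 1.52.

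Sterol synthesis rose in 20 of 28 genes and fell in 3, with a median of 0.54. ERG3 stood at 147, 200.3 and 165 CPM at 40 fL and 718, 833 and 780.0 CPM at 60 fL (2.19 ± 0.34, adjusted p = 2.79e-05), and ERG11, the target of azole drugs, went from 721, 932 and 839 CPM to 1527, 1562 and 1427 CPM (0.86 ± 0.19). ERG20, ERG27 and ERG4 rose by 0.99 ± 0.13, 0.92 ± 0.11 and 1.37 ± 0.21. IDI1, an early isoprenoid enzyme, fell by 0.93, ARE2, which makes sterol esters, by 0.77 and the activator ECM22 by 0.54.

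Phospholipid genes fell in 16 of 26 and rose in 6, with a median of -0.41. INO1, which makes inositol, stood at 76.5, 78.0 and 74.4 CPM at 40 fL and 16.1, 13.2 and 16.6 CPM at 60 fL (-2.32 ± 0.31, adjusted p = 7.92e-06). The inositol transporter ITR1 fell from 2166, 2047 and 1979.6 CPM to 689, 582 and 711 CPM (-1.64 ± 0.34), phosphatidylserine synthase CHO1 by 1.48, the activator INO2 by 1.52 and the repressor OPI1 by 1.34. PSD1, phosphatidylserine decarboxylase, fell by 1.13, and SLC1 and EPT1 rose by 0.96 ± 0.14 and 0.56 ± 0.10. Fatty acid genes were higher in 6 and lower in 8 of 18, with a median of 0.00 that turned to -0.25 with library totals. The elongation genes IFA38, ELO1, ELO2 and PHS1 rose by 1.49 ± 0.18, 0.98 ± 0.23, 0.84 ± 0.13 and 0.52 ± 0.12. EPT1 and PHS1 did not pass with TPM plus 1 (adjusted p = 0.164 and 0.307). OLE1, the desaturase, stood at 3284, 4622 and 4030.1 CPM at 40 fL and 634, 1667 and 1289 CPM at 60 fL, where 60 fL replicate 1 was the lowest and the groups did not overlap (-1.73 ± 0.42, adjusted p = 0.00137). Without replicate 1 at 60 fL 3 fatty acid genes were called lower.

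Cell wall mannoproteins rose in 14 of 24 and fell in 3, with a median of 1.27. TIR1, a mannoprotein known for induction by cold and low oxygen, stood at 4.20, 12.0 and 8.45 CPM at 40 fL and 283, 355 and 337 CPM at 60 fL (5.31 ± 0.70, adjusted p = 6.4e-06). SRL1 stood at 1.54, 0.625 and 0.934 CPM at 40 fL and 50.4, 51.1 and 46.7 CPM at 60 fL (5.55 ± 0.59), PRY2, a secreted sterol-binding protein, rose by 5.00 ± 0.52, CIS3 by 4.26 ± 0.38 and SVS1 by 3.62 ± 0.36. TOS6, a wall protein gene that SBF binds, was not in the list and rose from 6.43, 3.21 and 3.69 CPM to 209.5, 241 and 229 CPM (5.66 ± 0.58). TIP1 went the other way, at 863, 1298 and 1157 CPM at 40 fL and 88.7, 211 and 144 CPM at 60 fL (-2.90 ± 0.53, adjusted p = 0.000138). TIR4 was called lower (-1.83 ± 0.73, adjusted p = 0.0342) but not without replicate 2 at 40 fL, replicate 3 at 40 fL, replicate 1 at 60 fL, replicate 2 at 60 fL or replicate 3 at 60 fL (adjusted p from 0.0595 to 0.0872). None of TIR1, SRL1, TOS6 and TIP1 overlapped between the sizes.

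Glucan and chitin genes rose in 14 of 23 and fell in 1, with a median of 0.63. SIM1, of the SUN family, stood at 20.8, 11.5 and 11.5 CPM at 40 fL and 633, 546 and 599 CPM at 60 fL (5.34 ± 0.55, adjusted p = 1.01e-06). SCW10, a glucanase-like protein, rose by 4.44 ± 0.49, CRH1, which links chitin to glucan, by 4.13 ± 0.48 and GAS1, which elongates glucan, by 1.70 ± 0.20. KRE9 was called lower (-0.23 ± 0.09, adjusted p = 0.0264) but not without replicate 2 at 40 fL or replicate 1 at 60 fL (adjusted p from 0.0767 to 0.103). Mannosylation genes rose in 15 of 21 and fell in 2, with a median of 1.14. PMI40, which makes mannose 6-phosphate, went from 76.8, 52.8 and 59.8 CPM to 495, 408 and 440.4 CPM (2.83 ± 0.28), PSA1, which makes GDP-mannose, rose by 2.30 ± 0.30, and the protein O-mannosyltransferases PMT1, PMT2 and PMT3 by 1.58 ± 0.15, 1.14 ± 0.11 and 1.77 ± 0.18. KTR6 fell by 0.40, and MNN10 was called lower (-0.31 ± 0.12) but not without replicate 1 at 40 fL, replicate 2 at 40 fL, replicate 3 at 40 fL, replicate 2 at 60 fL or replicate 3 at 60 fL (adjusted p from 0.0566 to 0.0987). CSI2, in none of the lists, rose from 6.33, 2.67 and 3.01 CPM to 155, 161 and 174 CPM (5.34 ± 0.50).

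Vitamin and metal genes held the largest rise. THI4, which makes the thiazole part of thiamine (chromosome VII, 780399 to 781379), stood at 3.25, 1.92 and 2.59 CPM at 40 fL and 154, 500.2 and 429 CPM at 60 fL, a rise of 7.11 ± 0.86 (adjusted p = 3.04e-06). Replicate 1 was well below the other two 60 fL libraries and still far above all 40 fL libraries. Of 19 genes of thiamine and vitamin B6, 12 were higher and 1 lower. THI22 stood at 10.9, 12.9 and 10.7 CPM at 40 fL and 67.1, 199.7 and 174 CPM at 60 fL (3.68 ± 0.60, adjusted p = 5.26e-05), with the same low replicate 1. THI5 and THI12, which share 91.8% and 80.8% of their 31-base words with other copies, were called higher (5.30 ± 1.00 and 4.73 ± 0.72) from means of 0.264 and 0.486 CPM at 40 fL. The change of THI5 was 5.98 without replicate 1 at 40 fL. The activator PDC2 fell by 0.62.

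Iron uptake fell in 13 of 17 genes and rose in 0, with a median of -0.82. SIT1, a siderophore transporter, stood at 119, 136 and 146 CPM at 40 fL and 23.1, 21.1 and 20.9 CPM at 60 fL, without overlap (-2.62 ± 0.27, adjusted p = 1.01e-06). ARN1, ARN2 and ENB1, of the same family, fell by 1.05, 1.43 and 1.38. Phosphate genes were mostly not called, with 3 higher and 2 lower of 17. The factors PHO4 and PHO2 rose by 0.74 ± 0.09 and 0.59 ± 0.10, and the phosphatase PHO8 and the transporter PHO90 fell by 0.77 and 1.23. PHO2 did not pass with TPM plus 1 (adjusted p = 0.118). GIT1 was called higher (1.56 ± 0.54, adjusted p = 0.0176) but not without replicate 1 at 40 fL, replicate 3 at 40 fL or replicate 2 at 60 fL (adjusted p from 0.0511 to 0.0762).

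Among genes outside the lists, NCE103, carbonic anhydrase, fell from 239, 290.2 and 274 CPM to 26.3, 27.9 and 30.8 CPM (-3.24 ± 0.62, adjusted p = 0.000234), and EFM6, a methyltransferase of elongation factor 1A, from 34.2, 45.6 and 42.0 CPM to 5.19, 5.83 and 7.29 CPM (-2.73 ± 0.50). Some open reading frames with no common name changed as much as the named genes. YBR071W stood at 6.22, 5.17 and 4.50 CPM at 40 fL and 64.1, 77.9 and 73.6 CPM at 60 fL (3.76 ± 0.30, adjusted p = 2.36e-07), YBR184W rose by 3.80 ± 0.51 and YBR138C by 2.68 ± 0.38. YLR108C stood at 96.8, 86.7 and 93.7 CPM at 40 fL and 5.84, 5.25 and 8.06 CPM at 60 fL (-3.86 ± 0.73, adjusted p = 0.000208), YGR035C fell by 3.82 and YOR338W by 3.21. None of these genes overlapped between the sizes, which the rule that picked them required.

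The libraries between the sizes describe where on the way the change fell. The genes were picked by the 40 and 60 fL libraries, which the first and last steps also use. The sizes of those steps are therefore not independent of the picking. Of the 732 genes at least 2-fold higher at 60 fL, 431 (58.9%) had their largest step between 40 and 45 fL, 177 between 45 and 50, 71 between 50 and 55 and 53 between 55 and 60. Their median step was 0.71, 0.51, -0.01 and 0.38 in that order. Of the 818 genes at least 2-fold lower, 110 had their largest step between 40 and 45 fL, 306 between 45 and 50, 39 between 50 and 55 and 363 (44.4%) between 55 and 60. Their median step was -0.27, -0.80, 0.42 and -0.81, so that levels at 55 fL were above those at 50 fL.

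Start regulators rose early: the mean of the list was 1.27 ± 0.35 (SD, n = 3) above its 40 fL level at 45 fL and 2.18 ± 0.03 at 60 fL. CLN2 rose by 2.91 from 40 to 45 fL, by 1.18 to 50, changed by -0.16 to 55 and rose by 1.20 to 60 fL. The CLB2 cluster rose later, by 0.61 ± 0.35 at 45 fL, 0.97 ± 0.87 at 50 fL, 2.38 ± 0.43 at 55 fL and 2.30 ± 0.11 at 60 fL. Histones stood at 1.37 ± 0.58, 1.55 ± 0.83, 2.87 ± 0.52 and 2.98 ± 0.18.

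The rRNA processing list did not fall steadily. Its mean change from 40 fL was -0.21 ± 0.34 at 45 fL, -1.38 ± 0.90 at 50 fL, -0.76 ± 0.71 at 55 fL and -1.64 ± 0.08 at 60 fL. The spread at 50 and 55 fL came from libraries that differed from their mates. At 50 fL replicates 1, 2 and 3 stood at -1.99, -0.35 and -1.81, and at 55 fL they stood at -0.24, -1.57 and -0.46. Replicate 2 of each size was among the libraries that stood apart from their mates over all genes. The steps within the range therefore rest on libraries that differed within a size, while the ends of the range, at 40 and 60 fL, had an SD of 0.11 and 0.08 for this list.

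**Figure D5:**
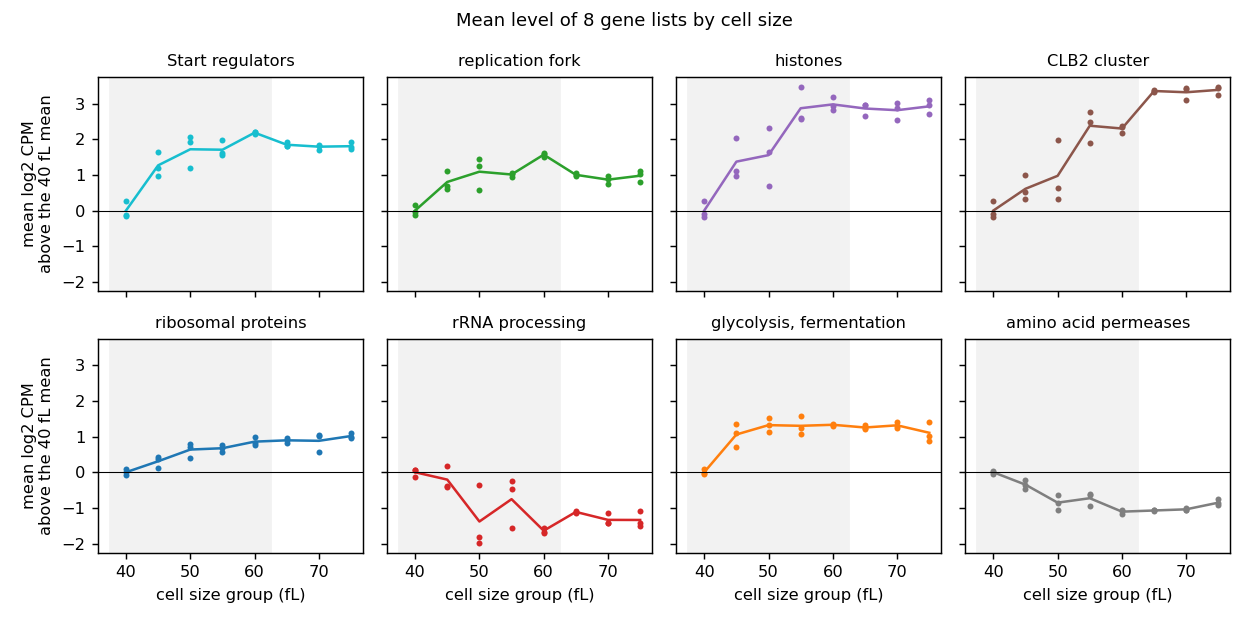
Mean log2 CPM of 8 gene lists above their 40 fL mean (y axis) by size group in fL (x axis), with a point for each of 3 libraries and a line through the means; the shaded span is 40 to 60 fL. The rRNA processing points split at 50 and 55 fL and meet at 60 fL (-1.64), and the CLB2 cluster stands at 2.30 at 60 fL and at 3.35, 3.32 and 3.38 at 65, 70 and 75 fL.

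The neighbouring comparison of 65 fL with 45 fL cells spans the same difference in size and shares no library with the one described. The difference between the 2 changes passed the threshold in 960 of 6402 genes (15.0%), by edgeR's quasi-likelihood test with Benjamini-Hochberg adjustment, and the change from 40 to 60 fL was the more positive in 688 of them. Replication fork genes stood far above that background, with 25 of 33 called, and so did cohesin with 10 of 12, Start regulators with 11 of 20 and glycolysis with 14 of 27. Ribosomal proteins were below it, with 8 of 137. The median change of the replication fork list was 1.83 from 40 to 60 fL and 0.29 from 45 to 65 fL, and that of glycolysis was 1.60 and 0.30. For rRNA processing the medians were -1.63 and -0.93. CLN2 changed by 5.13 from 40 to 60 fL and by 1.01 from 45 to 65 fL (adjusted p of the difference = 0.000366), RNR1 by 4.95 and 0.63 (adjusted p = 0.000366), and ENO1 by 2.83 and -0.34 (adjusted p = 0.000666).

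In a further fit without the libraries that stood apart, among them 40 fL replicate 1 and 45 fL replicate 3, the difference passed in 3050 genes. The reverse pattern was seen in daughter genes, 11 of 14 called, where the median change was -0.04 from 40 to 60 fL and 1.96 from 45 to 65 fL. CLB2 changed by 3.69 and 3.86 in the 2 comparisons (adjusted p = 0.886).

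Fewer genes were called between 60 and 75 fL, a shorter span of size than that from 40 to 60 fL. Against 60 fL, 128 genes (2.00%) were higher and 129 (2.01%) lower at 75 fL, in a comparison that shares the 60 fL libraries. Of the CLB2 cluster 9 of 20 were higher again at 75 fL, of the daughter genes 8 of 14 and of the purine and one-carbon genes 9 of 23, and of the replication fork genes 6 of 33 were lower. CLN2 had a mean of 8.55, 301 and 146 CPM at 40, 60 and 75 fL, CDC20 of 9.29, 28.3 and 78.9 CPM, and DBP2 of 2016, 157 and 189 CPM. THI4 had 2.59, 361 and 4.18 CPM, so that the largest rise of the comparison was back near its 40 fL level at 75 fL (75 against 60 fL, adjusted p = 0.00023).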

How the data were processed

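RNA was measured in 24 pools of yeast cells, 3 for each of 8 size groups, and the 3 pools near 60 fL were compared with the 3 near 40 fL. The deposited counts are whole reads per feature of build R64, assigned with featureCounts of Subread per the submitters' processing notes. Their versions, the aligner and the strand setting were not given. The deposited TPM values are counts per feature length scaled to a common total by the authors.

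Counts were fitted in R 4.3.3 with edgeR 4.0.16 (quasi-likelihood F test, robust, TMM factors, filterByExpr), with all 24 libraries and 8 groups in 1 model so that the spread was shared, and Benjamini-Hochberg adjustment over 6402 genes. CPM values used TMM-scaled library sizes, and standard errors are approximate, from the F statistic. The 40 fL libraries had TMM factors between 1.16 and 1.17, the 60 fL libraries between 0.956 and 0.990. On simulated counts the fit recovered 95% of 100 4-fold changes and 78% of 100 2-fold changes among 6389 genes and called 0.0969% of unchanged ones. Rises and falls were equal in number there, and all other genes had the same mean at 40 and 60 fL. In the data 65.1% of genes were called, so these rates do not cover the effect of the scaling on the calls. Replicates differed by more than counting error, so each counts as 1 sample.

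Alternatives used other scalings and filters, DESeq2 1.42.0, limma 3.58.1 on counts (voom) and on log2(TPM + 1) or log2(TPM + 0.1), where low genes' changes are understated, the 6 libraries alone, and fits without a library. Libraries stood apart where their mean distance to both mates was at least 1.4 times the distance between the mates.

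The members and gene lists were chosen with earlier results of these data known. Named genes include the 15 largest rises and falls among called genes with a common name and a mean of at least 10 CPM. For these the groups also had to lie apart, so their lack of overlap was fixed by the choice. Open reading frames with large changes and no common name were picked by the same rule. Others are the 4 of each list with the smallest adjusted p and up to 5 members against a list's direction. A fixed set of cell cycle and metabolic landmarks and paralogs of these genes were also named. ANB1, BCK2, CHO1, CTT1, FAR1, HXT3, INO2, ITR1, MBP1, MCM7, MDH1, NRM1, OPI1, PGK1, PRT1, PSA1, RNR4, RPA190, RPL8A, SAG1, SRL3, SUI3 and SWI6 were chosen after their values were seen. Some genes that the rule names are not reported here.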

Additional observations from a re-analysis of the deposited data

Results flagged for a closer look

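The change from 40 to 60 fL and the change from 45 to 65 fL, which share no library, differed in 960 of 6402 genes by edgeR's test of the difference itself, and that difference is what brings the genes here. CDC28, the cyclin-dependent kinase, rose by 1.20 on the log2 scale from 40 to 60 fL and changed by 0.03 from 45 to 65 fL, a difference of 1.16 (adjusted p = 2.2e-05). LYS9, of lysine synthesis, changed by 1.09 and -0.68, a difference of 1.77 (adjusted p = 7.5e-06). SCS3, which is needed for inositol prototrophy, changed by 0.82 and -0.66, a difference of 1.49 (adjusted p = 1.7e-06).

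SNZ2, a vitamin B6 synthesis gene with close copies elsewhere in the genome, changed by 3.10 and -0.65, a difference of 3.75 (adjusted p = 2.2e-05). YPS1, a protease of the cell surface, changed by 0.20, which did not pass (adjusted p = 0.197), and by -1.56, a difference of 1.76 (adjusted p = 2.2e-05). In the fit without the libraries that stood apart the count of 960 was 3050.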

How the results depend on the processing

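With limma on TPM plus 1 and TPM plus 0.1, which change the unit, the test and the scaling together, 1060 and 1057 genes were higher (1976 by TMM counts) and 3524 and 3504 lower (2189). At least 2-fold higher were 476 with library totals, 373 with TPM plus 1 and 391 with TPM plus 0.1 (732), and at least 2-fold lower were 1357 with TPM plus 1 and 1472 with TPM plus 0.1 (818). The genes whose change differed from that between 45 and 65 fL were 3050 without the libraries that stood apart (960). Leaving out 1 replicate at a time gave 3741 to 3964 genes called, 1773 to 1912 higher, 1917 to 2052 lower, 661 to 800 and 792 to 839 at least 2-fold higher and lower, and 682 to 1214 differing from the change between 45 and 65 fL.

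Of the 279 genes named, 33 lost their call under at least 1 alternative, 5 gained one and 7 changed sign, over all alternatives and left-out replicates. With library totals COB, DSE4, HXT8, MRPS12, ORT1, REC8, RRN5, RRN9, SIC1, SNR42, SNR86 and YAT1 were no longer called. With TPM plus 1 COB, COX1, DSE4, EGT2, EPT1, FKH2, GIT1, HXT8, MBP1, PHO2, PHS1, POX1, REC8, RNR4, RRN5, SIC1, SNR42 and YAT1 were no longer called. BCK2 and CTS1 were called lower with both, and MCM2 with TPM plus 1. CTT1 was called higher with limma-voom, and CTT1 and YPS1 without the libraries that stood apart. YPS1 was also called higher with the 6 libraries alone. With RLE factors KRE9, MNN10 and PSF1 were no longer called, and with no filter the same genes and CIT3, CLA4 and RAD55. PSF1 was also lost with DESeq2 and with the 6 libraries alone, and CIT3, GIT1 and PSF1 without the libraries that stood apart. DSE4, MRPL24 and SNR86 were lost with upper quartile factors, and DSE4 and MRPL24 with a filter of 1 CPM in 3 libraries. Signs changed as follows. With library totals GCN4 was at -0.25, called lower, MRPL24 at -0.031 and TAT2 at -0.049. With TPM plus 1 and plus 0.1, GCN4 was at -0.40 and -0.40, called lower, MRPL24 at -0.18 and -0.18, MRPS12 at -0.068 and -0.068, ORT1 at -0.022 and -0.023, RRN9 at -0.048 and -0.049, SNR86 at -0.058 and -0.058, and TAT2 at -0.20 and -0.20, called lower. The cause was not tested. No paired analysis was possible because the replicate numbers only order the pools and pair no pool of one size with a pool of another.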
